A study of Mus musculus with 20 samples.

Results

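The 10 core circadian clock genes Arntl, Per1, Per2, Per3, Cry1, Cry2, Nr1d1, Nr1d2, Bhlhe40 and Dbp were taken by symbol from a table of read counts for 23129 genes. All 10 were listed, and all 10 passed the filter on low counts that left 13237 genes for testing. The counts came from AgRP neurons, a hunger-promoting cell type of the hypothalamus named for agouti-related peptide. Cells marked red by tdTomato from the Ai9 allele were sorted from hypothalamic punches of C57BL/6 littermates aged 25 to 30 days, with 1000 cells per sample. The 20 libraries formed 4 groups of 5, which were fasted cKO (conditional knockout), fed cKO, fasted wild type and fed wild type. The cKO mice were Phf6 flox/y, so their single X-linked copy of Phf6 was floxed, and they also carried AgRP-Cre/+ and Ai9/+. Wild-type mice carried AgRP-Cre/+ and Ai9/+ alone, so all 4 groups shared the Cre and the reporter, and the Agrp promoter set the cells in which Phf6 could be deleted. Fasted mice went without food overnight from 5 pm on the day before the experiment and had water. The sources used here do not give the hour of collection, and it is not known whether fasted and fed mice, or all mice of a group, were taken at the same hour. The labels do not say whether each replicate was a separate mouse, and p-values therefore describe the spread between samples.

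The clock is a transcriptional loop. ARNTL (BMAL1) pairs with CLOCK or NPAS2, binds E-box elements and activates the Per and Cry genes, whose proteins return to the nucleus and repress that pair. The nuclear receptors NR1D1 and NR1D2 (REV-ERB alpha and beta) repress Arntl, BHLHE40 (DEC1) competes at E-boxes, and DBP is an output factor that activates genes with D-box elements, among them Per genes. Hypothalamic neurons outside the suprachiasmatic nucleus, the master clock, also carry this loop, and meal timing is a known time cue for it. Per1 in particular is also known to be induced within the hour by neuronal activity through CREB and by glucocorticoids.

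In the GENCODE M21 annotation of GRCm38, Arntl spans chr7:113207465-113314126 and Dbp chr7:45705088-45710203, both on the plus strand. Per1 spans chr11:69095217-69109960 (plus), Per2 chr1:91415982-91459324 (minus) and Per3 chr4:151003652-151044665 (minus). Cry1 spans chr10:85131700-85185064 and Cry2 chr2:92403646-92434043, both minus. Nr1d1 spans chr11:98767932-98775333 (minus), Nr1d2 chr14:18204054-18239127 (minus) and Bhlhe40 chr6:108660629-108666925 (plus).

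The stretches before the starts of Per1, Per3 and Cry1 are shown because they hold the matches to the E-box and D-box found among the member windows searched. Each is the 250 bases before a RefSeq transcript start on GRCm38.p6, read 5′ to 3′ on the gene's strand, with the E-box CACGTG or the D-box TTATGNAA in capitals. They lie at chr11:69098699-69098948 (plus strand) for Per1, chr4:151044666-151044915 (minus strand) for Per3 and chr10:85185055-85185304 (minus strand) for Cry1.
Per1: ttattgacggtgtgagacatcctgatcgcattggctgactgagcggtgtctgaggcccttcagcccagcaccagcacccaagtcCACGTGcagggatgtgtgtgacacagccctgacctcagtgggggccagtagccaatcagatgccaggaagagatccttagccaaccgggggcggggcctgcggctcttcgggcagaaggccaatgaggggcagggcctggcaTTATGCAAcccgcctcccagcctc
Per3: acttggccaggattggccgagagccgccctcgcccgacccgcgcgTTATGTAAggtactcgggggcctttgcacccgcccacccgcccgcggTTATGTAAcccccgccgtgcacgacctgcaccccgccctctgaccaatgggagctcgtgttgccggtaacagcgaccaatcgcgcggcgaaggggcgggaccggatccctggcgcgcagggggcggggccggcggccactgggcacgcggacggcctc
Cry1: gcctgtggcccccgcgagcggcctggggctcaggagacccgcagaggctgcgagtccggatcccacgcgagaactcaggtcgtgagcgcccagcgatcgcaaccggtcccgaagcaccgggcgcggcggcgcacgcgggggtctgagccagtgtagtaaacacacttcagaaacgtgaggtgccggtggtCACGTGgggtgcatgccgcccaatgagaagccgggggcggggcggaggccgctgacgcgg
The RefSeq windows, each of 250 bases before and 50 after a start, matched 8 of the 10 members with 10 windows, since Per1 and Arntl have 2 starts each, while Per2 and Bhlhe40 had no window and were not searched. Motifs were searched on both strands. The E-box was found in 2 of the 10 windows, at base -166 before the first start of Per1 and at base -60 of Cry1, and 7.15% of all 32851 windows held one. The D-box was found in 2 windows, once at base -24 of Per1 and at bases -205 and -158 of Per3, against 3.38% of all windows. The ROR element TAGGTCA was found in 1 window, at base 31 after the second start of Arntl, against 2.61% of all windows. The cAMP element TGACGTCA and the glucocorticoid receptor pattern ACANNNTGT were found in 0 of the 10 windows, against 1.79% and 6.85% of all windows. The short cAMP element CGTCA, which is also part of the full element, was found in 4 windows, both of Per1 and those of Cry1 and Cry2, against 20.8% of all windows. A match describes letters in a window and is not evidence of binding.

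Depth ran from 8494499 to 10000278 counts in fasted and from 10604977 to 13573524 counts in fed libraries. The targeted gene Phf6 was lower in cKO in every library, at 53.6 to 71.3 CPM (a read count scaled for library size) in fasted cKO and 64.97 to 76.3 CPM in fed cKO, against 116 to 142 CPM in fasted wild type and 264 to 292 CPM in fed wild type. The deleted exons are not given, so this check rests on reads of the whole gene. Replicates 1 and 2 of each fasted group stood apart from replicates 3 to 5. Correlations of their deviations from the group mean over all tested genes were -0.375 to -0.315 across these sets in fasted cKO and -0.488 to -0.376 in fasted wild type. Within the sets they were -0.137 to -0.0576 in fasted cKO and -0.0357 to 0.164 in fasted wild type. Deviations from the mean of the same 5 libraries tend to correlate below 0 by construction. These values are therefore compared with each other and not with 0. The labels do not say what the replicate numbers mark. All 7 listed markers of AgRP neurons were detected, with summed levels of 50400 to 68800 CPM in fasted cKO, 26600 to 31200 CPM in fed cKO, 58900 to 84500 CPM in fasted wild type and 20600 to 22800 CPM in fed wild type. Most of the sum was Npy and Agrp, which were higher in both fasted groups, as were Corin, Acvr1c and Ghsr. Npy2r was lower with fasting, at 110 to 138 CPM in fasted and 381 to 403 in fed cKO. In wild type Npy2r was at 73.5 to 115 CPM in fasted and 417 to 443 in fed libraries. Otp overlapped between fasted and fed libraries in both genotypes. The sum therefore does not measure the share of AgRP neurons. Of 8 suprachiasmatic markers 6 were tested, with sums of 105 to 120, 132 to 142, 107 to 131 and 134 to 152 CPM in the same order of groups, most of it Zfhx3 and Six6. Of the 8, Lhx1 was at 0 in both fasted groups and Nms at 0 in fed cKO and both wild-type groups. Nms reached 2.04 CPM in fasted cKO. Vip reached 7.46 CPM in fasted cKO and 8.88 in fasted wild type, against 0.785 and 0.964 in fed cKO and fed wild type. Avp was at 0.716 to 5.19 CPM in fasted cKO and 1.32 to 3.51 in fasted wild type. In fed libraries it reached 0.561 in cKO and 0.0779 in wild type. Zfhx3 and Six6 were lower in both fasted groups. The part of these transcripts in the clock gene results was not tested.

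In cKO neurons Cry1 rose with fasting, Per3, Nr1d1, Nr1d2, Bhlhe40 and Dbp fell, and Per1, Per2, Cry2 and Arntl did not pass the test. In wild-type neurons Per1, Per2, Cry1 and Cry2 rose, Per3, Nr1d1, Nr1d2, Bhlhe40 and Dbp fell, and Arntl did not pass. Here "rose" and "fell" mean an adjusted p under 0.05 in edgeR's quasi-likelihood test with Benjamini-Hochberg adjustment over all tested genes. The cKO count of 1 rise and 5 falls among 10 stands against 26.0% of all tested genes that rose and 27.0% that fell, so a call in either direction was also common among genes at large. The wild-type count of 4 rises and 5 falls stands against 29.6% that rose and 31.3% that fell. The median log2 fold change of the 10 members was -0.56 in cKO and -0.19 in wild type, where that of all tested genes was -0.033 and -0.032. The hour of collection being unknown, the part of time of day in these differences was not tested. These are bulk libraries, so fewer cells of a type and less RNA per cell cannot be told apart.

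**Figure D1:**
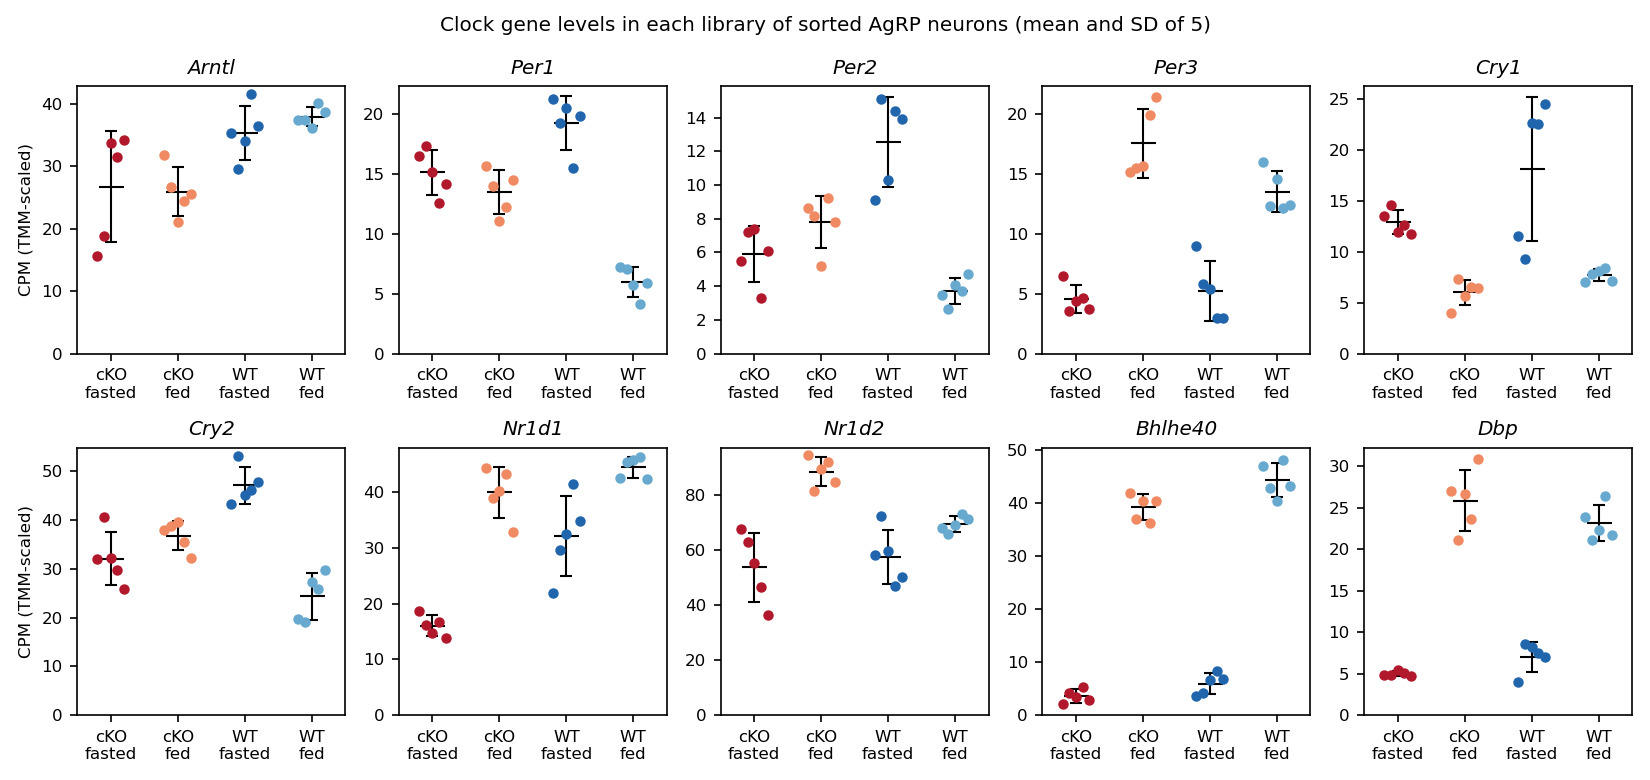
Levels of the 10 clock genes in each library, as CPM on linear axes that start at 0, with 1 panel per gene and fasted cKO, fed cKO, fasted wild type and fed wild type from left to right. Points are libraries and bars are the mean and SD of 5. Bhlhe40, Dbp and Per3 lie lower in both fasted groups than in both fed groups, while Per1 and Per2 have their lowest mean in fed wild type.

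Arntl, the activator, showed no difference with fasting that passed the test. Its level was 15.6, 18.8, 33.7, 31.4 and 34.1 CPM in fasted cKO and 31.9, 26.7, 21.1, 24.5 and 25.5 CPM in fed cKO (replicates 1 to 5). In wild type it was 35.3, 29.6, 34.1, 41.6 and 36.5 CPM in fasted and 37.4, 37.3, 36.1, 40.1 and 38.7 CPM in fed libraries. Fasted and fed libraries overlapped in both genotypes. The log2 fold change was 0.052 ± 0.154 SE in cKO (95% interval -0.26 to 0.37, adjusted p = 0.803) and -0.098 ± 0.149 SE in wild type (95% interval -0.40 to 0.21, adjusted p = 0.586). Fasted cKO replicates 1 and 2 lay well below replicates 3 to 5. With fasted replicates 1 and 2 alone the change in cKO was -0.58 (adjusted p = 0.000879), and with replicates 3 to 5 alone it was 0.36 (adjusted p = 0.00492), so both its direction and its call rest on which libraries are used.

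Per1 encodes a repressor of the loop and doubles as an immediate early gene. It had 16.5, 17.3, 15.2, 12.6 and 14.2 CPM in fasted cKO, against 15.7, 13.98, 11.1, 12.3 and 14.5 CPM in fed cKO, from 111 to 209 reads per library. These groups overlapped, with a log2 fold change of 0.17 ± 0.143 SE (95% interval -0.13 to 0.46, adjusted p = 0.34). With offsets for gene length and GC content the cKO change was 0.52 and passed (adjusted p = 0.00448). In wild type it had 21.3, 19.2, 20.5, 15.5 and 19.9 CPM in fasted and 7.25, 7.11, 5.71, 4.13 and 5.86 CPM in fed libraries, from 53 to 189 reads. Every fasted wild-type library lay above every fed one, and the rise was 3.20-fold (log2 fold change 1.68 ± 0.149 SE, adjusted p = 1.34e-10). Its mean levels ran from fasted wild type through fasted cKO and fed cKO to fed wild type, and the first 3 of these groups overlapped their neighbours while fed wild type lay below all of them.

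Per2, which also encodes a repressor of the loop, was the scarcest member in fed wild type per kilobase. It had 5.50, 7.21, 7.42, 3.29 and 6.09 CPM in fasted cKO, against 8.64, 8.16, 5.18, 9.20 and 7.83 CPM in fed cKO. Those groups overlapped, and the log2 fold change was -0.40 ± 0.212 SE (95% interval -0.84 to 0.033, adjusted p = 0.113). Without fed cKO replicate 3, the lowest of its group, that difference passed as a fall (-0.52, adjusted p = 0.0426). Wild-type levels of Per2 were 9.12, 15.1, 10.3, 14.4 and 13.9 CPM in fasted and 3.45, 2.66, 4.07, 3.74 and 4.74 CPM in fed libraries, with no overlap and a 3.37-fold rise (log2 fold change 1.75 ± 0.213 SE, adjusted p = 4.85e-08). From 29 to 128 reads stood behind each Per2 value.

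Per3, whose product is a weaker repressor than the other Per proteins, went the other way. It had 3.54 to 6.50 CPM in fasted cKO, against 15.2 to 21.4 CPM in fed cKO, and 2.93 to 9.0 CPM in fasted wild type, against 12.2 to 16.02 CPM in fed wild type. No fasted library reached a fed one in either genotype. The fall was 3.85-fold in cKO (log2 fold change -1.94 ± 0.222 SE, adjusted p = 2.57e-08) and 2.60-fold in wild type (-1.38 ± 0.218 SE, adjusted p = 3.83e-06).

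Cry1 and Cry2 encode the cryptochromes that hold the activator pair in check. Cry1 had 13.5, 14.5, 11.9, 12.6 and 11.7 CPM in fasted cKO, against 4.01, 7.31, 5.61, 6.56 and 6.45 CPM in fed cKO. In wild type it had 11.6, 9.30, 22.6, 22.5 and 24.5 CPM in fasted and 7.04, 7.75, 8.14, 8.41 and 7.15 CPM in fed libraries. All fasted libraries lay above the fed ones of their genotype, and in fasted wild type replicates 1 and 2 lay far below replicates 3 to 5. The rise was 2.14-fold in cKO (log2 fold change 1.09 ± 0.209 SE, adjusted p = 7e-05) and 2.36-fold in wild type (1.24 ± 0.202 SE, adjusted p = 5.87e-06). With fasted replicates 1 and 2 alone the wild-type rise was 0.42 and did not pass (adjusted p = 0.0861), and with replicates 3 to 5 alone it was 1.59 (adjusted p = 2.41e-11).

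Cry2 had 32.01, 40.6, 32.2, 29.7 and 25.8 CPM in fasted cKO, against 37.96, 38.7, 39.5, 35.5 and 32.2 CPM in fed cKO, and these libraries overlapped. The cKO difference was -0.20 ± 0.118 SE (95% interval -0.44 to 0.044, adjusted p = 0.16). It passed as a fall without fasted cKO replicate 2 (-0.30, adjusted p = 0.0388) and with fasted replicates 3 to 5 alone (-0.33, adjusted p = 0.0212), and with offsets for gene length and GC content it was 0.062. Wild-type levels were 43.4, 53.2, 45.1, 46.2 and 47.9 CPM in fasted and 19.6, 19.1, 27.3, 25.9 and 29.7 CPM in fed libraries, with no overlap and a 1.94-fold rise (log2 fold change 0.95 ± 0.118 SE, adjusted p = 6.71e-08). Of its exon bases, 4.67% are shared with D930015M05Rik on the opposite strand. The library kit does not mark strand, and reads of such overlaps cannot be assigned to either gene.

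Nr1d1 and Nr1d2, the REV-ERB repressors of Arntl, fell with fasting in both genotypes. Nr1d1 had 18.8, 16.2, 14.7, 16.7 and 13.8 CPM in fasted cKO, against 44.4, 39.03, 40.3, 43.4 and 32.8 CPM in fed cKO, and no libraries overlapped. The wild-type values were 21.9, 29.7, 32.5, 41.6 and 34.8 CPM in fasted and 42.6, 45.5, 45.8, 46.3 and 42.3 CPM in fed libraries, also without overlap. The fall was 2.49-fold in cKO (log2 fold change -1.32 ± 0.125 SE, adjusted p = 9.16e-10) and 1.39-fold in wild type (-0.47 ± 0.118 SE, adjusted p = 0.00106). Fasted cKO lay below all other groups. Nr1d1 shares 8.55% of its exon bases with Thra on the opposite strand.

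Nr1d2 was at 36.2 to 67.4 CPM in fasted cKO, against 81.4 to 94.2 CPM in fed cKO, a 1.65-fold fall (log2 fold change -0.72 ± 0.117 SE, adjusted p = 7.32e-06). In wild type it was at 46.96 to 72.3 CPM in fasted and 65.5 to 73.1 CPM in fed libraries, which overlapped, and the fall was 1.21-fold (-0.27 ± 0.116 SE, adjusted p = 0.043). The wild-type fall sat at the threshold. It did not pass with DESeq2 (adjusted p = 0.0682), with its scaling factors in edgeR (0.0597), with fasted replicates 1 and 2 alone (0.295), or without fasted replicate 3, 4 or 5 or fed replicate 1, 3, 4 or 5 of wild type (0.052 to 0.126).

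Bhlhe40 had the largest fall of the members in both genotypes. It had 2.0, 4.17, 3.36, 5.33 and 2.87 CPM in fasted cKO, from 16 to 47 reads, against 41.9, 36.97, 40.4, 36.1 and 40.4 CPM in fed cKO. In wild type it had 3.62, 4.13, 6.62, 8.33 and 6.73 CPM in fasted and 46.9, 42.8, 40.4, 48.1 and 43.1 CPM in fed libraries. The groups lay far apart, and the fall was 10.96-fold in cKO (log2 fold change -3.45 ± 0.180 SE, adjusted p = 8.45e-15) and 7.46-fold in wild type (-2.90 ± 0.167 SE, adjusted p = 2.01e-14). Of its exon bases, 2.51% are shared with 0610040F04Rik on the opposite strand.

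Dbp, the output activator, had 4.88, 4.81, 5.45, 5.11 and 4.66 CPM in fasted cKO, against 26.97, 21.1, 26.6, 23.7 and 30.9 CPM in fed cKO. Wild-type libraries had 3.97, 8.52, 8.24, 7.43 and 6.95 CPM when fasted and 23.9, 21.1, 22.3, 26.5 and 21.8 CPM when fed. No fasted library came near a fed one. The fall was 5.18-fold in cKO (log2 fold change -2.37 ± 0.156 SE, adjusted p = 8.12e-13) and 3.29-fold in wild type (-1.72 ± 0.149 SE, adjusted p = 8.01e-11). Dbp shares 18% of its exon bases with Sphk2 on the opposite strand, so part of its counts is uncertain.

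**Figure D2:**
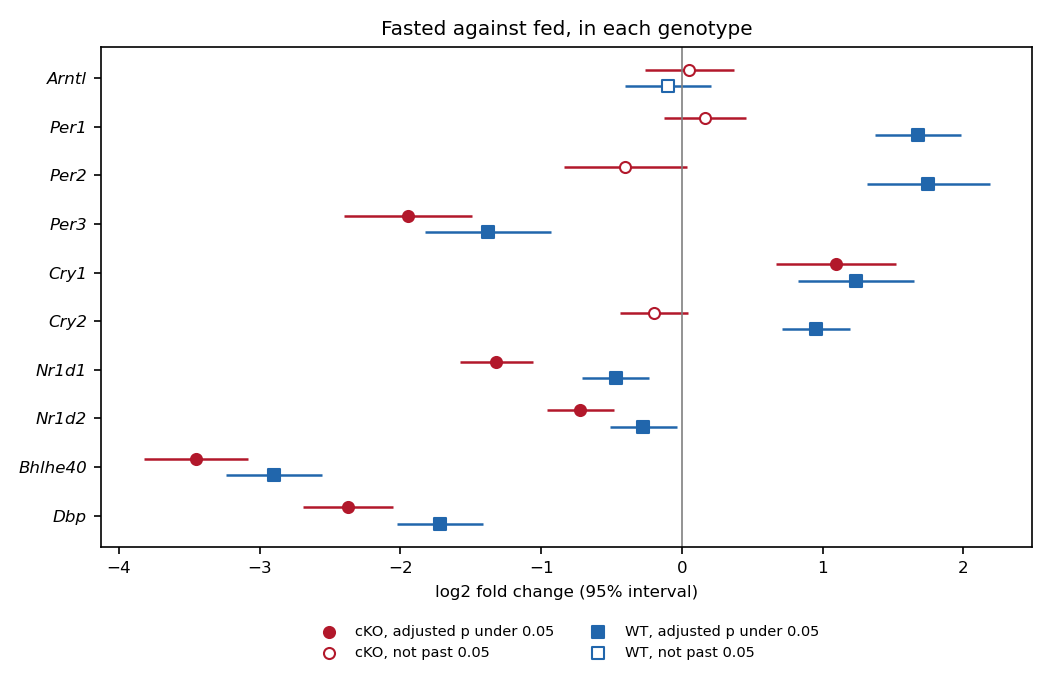
Log2 fold change of each clock gene, fasted against fed, with its 95% interval, for cKO (circles) and wild type (squares), with filled symbols at an adjusted p under 0.05. The intervals of Per1, Per2 and Cry2 reach 0 in cKO, at 0.17, -0.40 and -0.20, and lie right of 0 in wild type, at 1.68, 1.75 and 0.95, while the 5 genes that fell do so in both genotypes.

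The question of the design is whether loss of Phf6, a chromatin-binding protein, alters the response to fasting, and the interaction, the cKO response minus the wild-type response, tests it. The response was lower in cKO for Per1, Per2, Cry2, Nr1d1 and Dbp, and higher for 0 of the 10 members, against 8.44% of all tested genes with a lower and 8.87% with a higher response in cKO. At an unadjusted p under 0.05, and with DESeq2, the number with a higher response was also 0. The interaction was -1.51 ± 0.206 SE for Per1 (adjusted p = 8.94e-06), -2.15 ± 0.300 SE for Per2 (1.23e-05) and -1.15 ± 0.167 SE for Cry2 (2.04e-05) on the log2 scale. All 3 kept their direction and passed under every alternative run. Among the 5 that fell in both genotypes, Nr1d1 fell further in cKO (-0.85 ± 0.172 SE, adjusted p = 0.000988), though not with fasted replicates 1 and 2 alone (-0.38, adjusted p = 0.168). Dbp did so near the threshold (-0.66 ± 0.216 SE, adjusted p = 0.0358), and its call was lost in 12 of the 20 fits that left out a single library (highest adjusted p = 0.0784, without fasted wild-type replicate 3).

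The other 5 members had interactions that did not pass the test. They were -0.57 for Per3 (95% interval -1.21 to 0.072), -0.14 for Cry1 (-0.74 to 0.45), -0.45 for Nr1d2 (-0.78 to -0.11), 0.15 for Arntl (-0.29 to 0.59) and -0.56 for Bhlhe40 (-1.07 to -0.039). Nr1d2 was near the threshold (adjusted p = 0.0602) and passed as a deeper fall in cKO with 9 alternatives, among them fasted replicates 3 to 5 alone (-0.53, adjusted p = 0.00181). Bhlhe40 passed in the same direction with fasted replicates 3 to 5 alone (-0.72, adjusted p = 0.0109) and without fasted wild-type replicate 1 (-0.68) or fasted cKO replicate 4 (-0.75). Per3 passed with fasted replicates 1 and 2 alone (-0.92, adjusted p = 0.0452). The median interaction over the 10 members was -0.61, where that of all tested genes was -0.028.

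In fed mice, Per1, Per2, Cry2 and Nr1d2 were higher in cKO and Arntl was lower. The 4 rises and 1 fall among 10 stand against 5.87% of all tested genes that rose and 3.81% that fell. Per1 averaged 13.5 ± 1.84 CPM in fed cKO and 6.01 ± 1.26 CPM in fed wild type (mean ± SD, n = 5 each), with no overlap and a 2.24-fold difference (log2 fold change 1.16 ± 0.148 SE, adjusted p = 2.79e-06). Per2 averaged 7.80 ± 1.55 and 3.73 ± 0.769 CPM in the same groups, again without overlap (2.09-fold, adjusted p = 0.0012). Cry2 averaged 36.8 ± 2.99 CPM in fed cKO and 24.3 ± 4.75 CPM in fed wild type (1.51-fold, adjusted p = 0.00101). These 3 genes had no rise past the test with fasting in cKO and rose in wild type, and as the comparison of genotypes in fed mice shares fed wild type with the wild-type response, the 2 are not independent. The median difference over the 10 members was 0.26, where that of all tested genes was 0.0081.

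Arntl averaged 25.9 ± 3.92 CPM in fed cKO and 37.9 ± 1.52 CPM in fed wild type, with every cKO library below every wild-type one (1.47-fold lower, log2 fold change -0.55 ± 0.149 SE, adjusted p = 0.0171). Nr1d2 averaged 88.2 ± 5.23 CPM in fed cKO and 69.3 ± 2.90 CPM in fed wild type, also without overlap (1.27-fold, log2 fold change 0.35 ± 0.113 SE, adjusted p = 0.0485). The Arntl call was lost without fed cKO replicate 3 (adjusted p = 0.0577). The Nr1d2 call was lost without any single one of the 10 fed libraries or without replicate 3 of either fasted group (adjusted p from 0.0545 to 0.11), in a robust fit (0.0516) and with offsets for length and GC content (0.0532). The other 5 differences did not pass, with 0.38 for Per3 (95% interval -0.023 to 0.78), -0.36 for Cry1 (-0.79 to 0.071), -0.16 for Nr1d1 (-0.39 to 0.078), -0.18 for Bhlhe40 (-0.46 to 0.11) and 0.16 for Dbp (-0.11 to 0.43). Per3 passed as higher in cKO in a fit of the fed groups alone (0.37, adjusted p = 0.0256).

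In fasted mice the clock genes that differed were lower in cKO. Per2, Cry2, Nr1d1, Bhlhe40 and Dbp fell, against 8.84% of all tested genes that fell. The number of members that rose was 0, against 11.5% of all tested genes, and it was also 0 at an unadjusted p under 0.05 and with DESeq2. Upper-quartile scaling turned the balance of calls over all genes, to 1232 that rose and 1575 that fell, against 1517 and 1170 with the scaling used here, and it left each of these 5 falls in place. Per2 averaged 5.90 ± 1.66 CPM in fasted cKO and 12.6 ± 2.68 CPM in fasted wild type (mean ± SD, n = 5 each), a 2.13-fold difference without overlap (log2 fold change -1.09 ± 0.212 SE, adjusted p = 0.000608). Nr1d1 averaged 16.04 ± 1.90 CPM in fasted cKO and 32.1 ± 7.20 CPM in fasted wild type, 2.003-fold lower without overlap (-1.002 ± 0.128 SE, adjusted p = 4.18e-06). Cry2 averaged 32.1 ± 5.42 CPM in fasted cKO and 47.1 ± 3.77 CPM in fasted wild type, 1.47-fold lower without overlap (-0.56 ± 0.119 SE, adjusted p = 0.00147). The median difference over the 10 members was -0.50, where that of all tested genes was -0.011. With fasted replicates 1 and 2 alone the Per2 difference was -0.91 (adjusted p = 0.0502) and that of Cry2 -0.40 (0.125).

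Bhlhe40 averaged 3.55 ± 1.27 CPM in fasted cKO and 5.89 ± 1.96 CPM in fasted wild type, and these libraries overlapped (1.66-fold lower, log2 fold change -0.73 ± 0.210 SE, adjusted p = 0.0138). Dbp averaged 4.98 ± 0.308 CPM in fasted cKO and 7.03 ± 1.82 CPM in fasted wild type, where replicate 1 alone lay below the cKO libraries (-0.49 ± 0.171 SE, adjusted p = 0.0405). Both calls depended on single libraries and on the fit. Bhlhe40 lost its call without fasted wild-type replicate 4 or fasted cKO replicate 1 (adjusted p = 0.0596 and 0.0507) and in a fit of the fasted groups alone (0.125). Dbp lost it without any single fasted library other than wild-type replicate 1 or cKO replicate 3 (0.0591 to 0.113), in a fit of the fasted groups alone (0.162), with no filter (0.0559) and with offsets for length and GC content (0.0555). Per1, Per3, Cry1, Nr1d2 and Arntl did not pass, with differences of -0.35 (95% interval -0.64 to -0.055), -0.19 (-0.69 to 0.31), -0.50 (-0.91 to -0.088), -0.097 (-0.34 to 0.15) and -0.40 (-0.72 to -0.084) in that order. Cry1 passed as lower in cKO with fasted replicates 3 to 5 alone (-0.95, adjusted p = 9.63e-05) or without fasted wild-type replicate 1 or 2 (0.0194 and 0.00748), and was not lower with replicates 1 and 2 alone (0.44, adjusted p = 0.279). Arntl passed as lower in cKO with replicates 1 and 2 alone (-0.90, adjusted p = 0.000401), with upper-quartile scaling (0.048), and without fasted wild-type replicate 2 (0.0369) or fasted cKO replicate 3 or 5 (0.0322 and 0.0293).

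**Figure D3:**
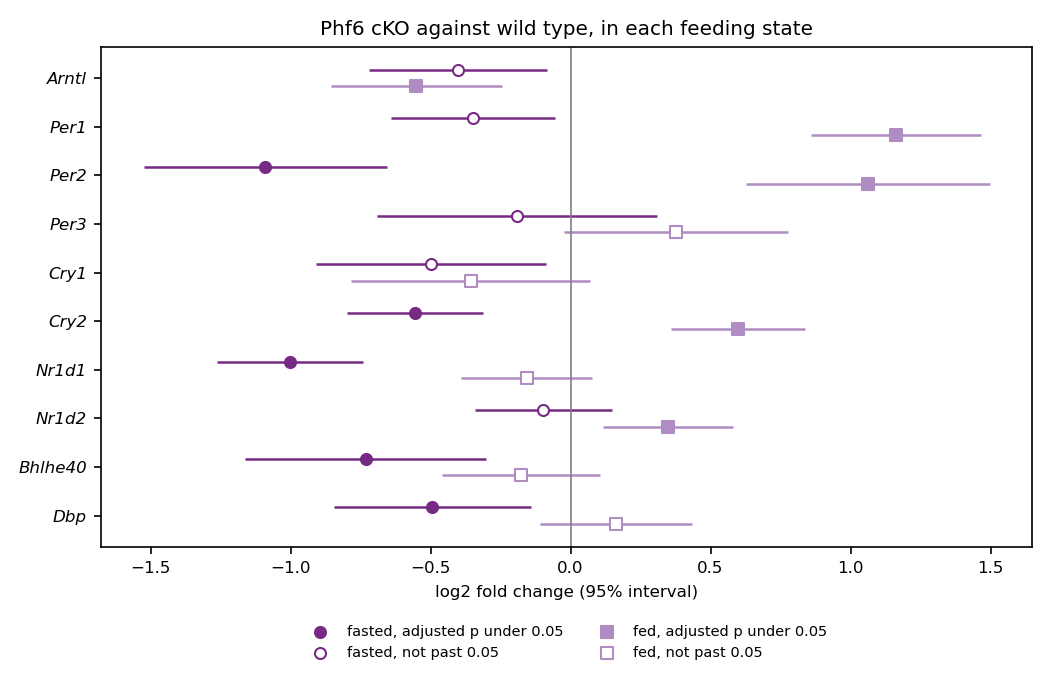
Log2 fold change of each clock gene, cKO against wild type, with its 95% interval, in fasted (circles) and fed (squares) mice, with filled symbols at an adjusted p under 0.05. Per2 and Cry2 passed in opposite directions in both feeding states, at -1.09 and -0.56 in fasted and 1.06 and 0.60 in fed mice.

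The split of the fasted replicates ran through the clock genes. In fasted cKO, replicates 1 and 2 did not overlap replicates 3 to 5 for Arntl, Per1, Cry1 and Nr1d2. In fasted wild type they did not overlap for Per3, Cry1, Nr1d1 and Bhlhe40. Cry1, the gene in both lists, was higher in replicates 1 and 2 of fasted cKO, at 13.5 and 14.5 CPM against 11.7 to 12.6 CPM, and lower in those of fasted wild type, at 11.6 and 9.30 CPM against 22.5 to 24.5 CPM. Per2, Cry2 and Dbp overlapped between the sets in both genotypes. Agrp was higher in replicates 1 and 2 in both genotypes. It was at 11900 and 13700 CPM against 9980 to 10700 CPM in fasted cKO. In fasted wild type it was at 17500 and 17800 CPM against 13000 to 13200 CPM. Npy, Corin and Acvr1c were also higher there in both genotypes, and Ghsr in fasted cKO only. Otp overlapped between the sets. Npy2r was lower in replicates 1 and 2, at 120 and 110 CPM against 131 to 138 CPM in fasted cKO. In fasted wild type Npy2r was at 86.7 and 73.5 CPM against 101 to 115 CPM. Pomc, a marker of the neighbouring satiety neurons, was lower in replicates 1 and 2. It was at 35.5 and 41.1 CPM against 194 to 441 CPM in fasted cKO. In fasted wild type it was at 40.0 and 47.9 CPM against 69.4 to 136 CPM. Of the other listed markers of these neurons, Tbx3 was also lower there in both genotypes. Cartpt was lower in fasted cKO, at 404 and 490 CPM against 596 to 655 CPM. In fasted wild type Cartpt was higher, at 363 and 382 CPM against 310 to 355 CPM. What sets these libraries apart was not tested.

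**Figure D4:**
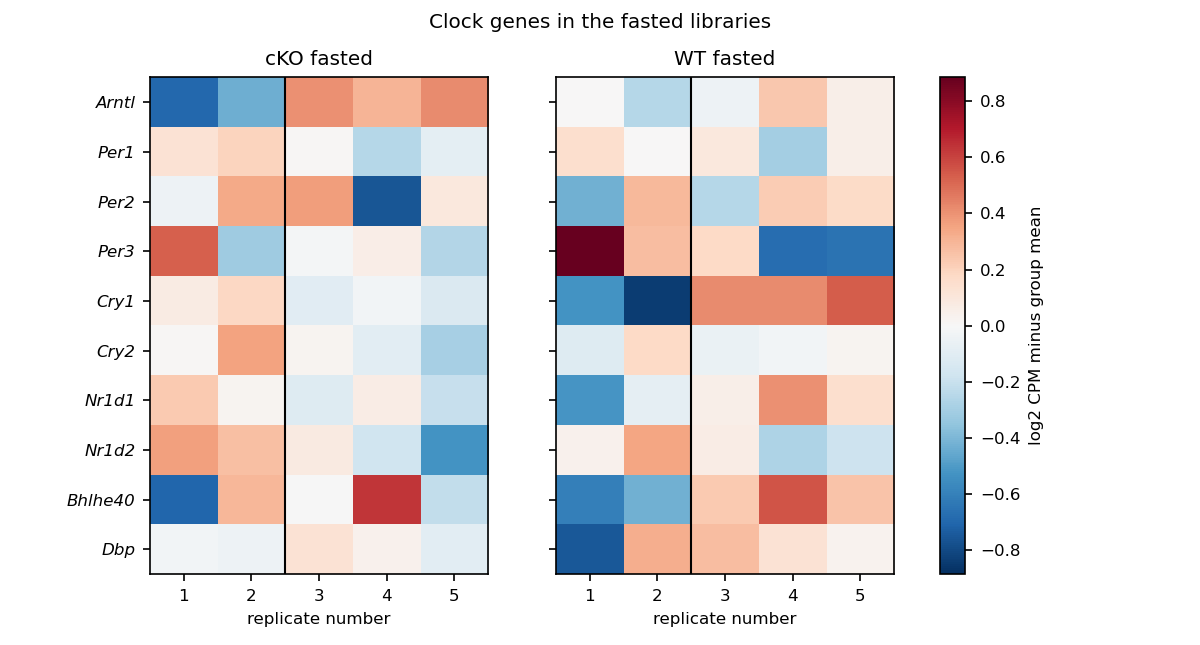
Deviation of each clock gene from its group mean, as log2 CPM, in the 5 libraries of fasted cKO (left) and of fasted wild type (right), with red above and blue below the mean and a line between replicates 2 and 3. Arntl in cKO and Cry1 in wild type are below the mean in replicates 1 and 2, and in wild type Per3 is above it.

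Levels were compared between genes as CPM per kilobase of annotated exons. In fed wild type Nr1d1 was the most abundant member, at 14.5 ± 0.618 CPM per kilobase (mean ± SD, n = 5), followed by Nr1d2, Bhlhe40, Dbp, Arntl, Cry2, Cry1, Per3, Per1 and Per2, the last at 0.637 ± 0.131. Bhlhe40 and Dbp overlapped, as did Per3 with Per1 and Per1 with Per2, and the other neighbours did not. In fasted wild type the order was Nr1d2, Nr1d1, Cry2, Cry1, Arntl, Per1, Dbp, Per2, Bhlhe40 and Per3, with overlap between all neighbours except Arntl and Per1, and Per3 was at 0.544 ± 0.260. In fasted cKO Nr1d2 led at 9.90 ± 2.33 and Per3 was last at 0.475 ± 0.123, and Bhlhe40 was next to last at 0.754 ± 0.271. In fed cKO Nr1d2 led at 16.3 ± 0.968 and Per2 was last at 1.33 ± 0.265. Per kilobase of the longest transcript instead, Nr1d1 and Nr1d2 stayed the top pair in both fed groups, and Cry2 took the second place in both fasted groups.

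Genes outside the clock lists with the pattern nearest to a member over the 4 groups were listed. A nearest gene exists for any member by construction, so the list is a description and not a test. Likeness was the distance between 4 group means of log2 CPM, each centred on its own mean, and the search covered tested genes outside the clock lists, without numbered gene models, Riken names and sex-linked marker genes, for the 4 members whose group means ranged most widely. For Bhlhe40, with a range of 3.64, the nearest were Rgs8 at 0.382, which was under the floor of 3 counts on average in both fasted groups, and Sec14l3 at 0.429. For Dbp, with a range of 2.33, they were Pnma1 at 0.135 and Hrh3, the histamine H3 receptor, at 0.174. Hrh3 averaged 6.81 CPM in fasted cKO and 29.6 CPM in fed cKO, and 8.48 CPM in fasted and 31.1 CPM in fed wild type. For Per3, with a range of 1.92, they were Nodal at 0.0908 and Fn3k at 0.113. For Per2, with a range of 1.70, they were Kcnj2, an inward rectifier potassium channel, at 0.208 and Asf1b, a histone chaperone, at 0.219. Both were scarce, with group means of 0.923 to 3.20 CPM for Kcnj2 and 0.766 to 2.43 CPM for Asf1b.

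Of 34 further clock genes, listed with earlier results of these data known, 32 were in the table and 31 were tested. With fasting 9 rose, 10 fell and 12 did not pass, in cKO and likewise in wild type. Over all tested genes 26.0% rose and 27.0% fell in cKO, and 29.6% rose and 31.3% fell in wild type, so these counts lie near the share among all genes. Nfil3, a repressor that competes with DBP at D-boxes, rose 2.91-fold in cKO and 5.36-fold in wild type, with a smaller response in cKO (interaction -0.88 ± 0.142 SE, adjusted p = 8.29e-05). Rorb, a nuclear receptor of the ROR family that acts on the REV-ERB element, rose 4.62-fold and 3.95-fold (interaction 0.23, adjusted p = 0.708). Ccrn4l, which encodes nocturnin, rose 2.84-fold in cKO and 2.92-fold in wild type. Hlf and Tef, which belong with Dbp to the PAR bZIP family, fell in both genotypes, Hlf 2.99-fold in cKO and 2.12-fold in wild type and Tef 1.90-fold and 1.29-fold.

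Ciart, a repressor that acts on the ARNTL-CLOCK pair, fell 2.50-fold with fasting in cKO, while in wild type it did not pass the test (0.30, adjusted p = 0.159). Its interaction was -1.62 ± 0.261 SE (adjusted p = 8.23e-05), and it averaged 6.03 ± 1.36 CPM in fasted cKO, 15.02 ± 3.84 in fed cKO, 10.8 ± 1.11 in fasted wild type and 8.85 ± 1.82 CPM in fed wild type. Over all 31 tested, the response was higher in cKO for 3 and lower for 7, against 8.87% and 8.44% of all tested genes. Fbxl21, an F-box protein that binds cryptochromes, was among the lower ones (-0.58, adjusted p = 0.00819). Btrc, which targets PER proteins for degradation, and Prkaa1, a catalytic subunit of the energy sensor AMPK, were among the higher ones (0.41, adjusted p = 0.00315, and 0.77, adjusted p = 0.00223). The third was Clock, the partner of ARNTL, named here after its values were seen (0.43, adjusted p = 0.0171), with averages of 72.2 ± 10.2 CPM in fasted cKO, 55.96 ± 2.16 in fed cKO, 60.8 ± 8.18 in fasted and 63.5 ± 3.33 CPM in fed wild type.

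Between genotypes, 6 of these 31 rose and 2 fell in fed cKO, and 6 rose and 4 fell in fasted cKO. Over all tested genes 5.87% rose and 3.81% fell in fed cKO, and 11.5% rose and 8.84% fell in fasted cKO. In fed mice Nfil3 was 2.25-fold and Usp2, a deubiquitinase with rhythmic expression, 2.34-fold higher in cKO (adjusted p = 5.9e-09 and 0.000998). Arntl2, the paralog of Arntl, was 1.38-fold lower in fasted and 1.42-fold lower in fed cKO (adjusted p = 0.0192 and 0.0101). Fits of only the groups compared gave 14 calls in fed and 3 in fasted mice, and the calls in fasted mice also came to 6 without fasted wild-type replicate 3 and to 4 with fasted replicates 1 and 2 alone.

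**Figure D5:**
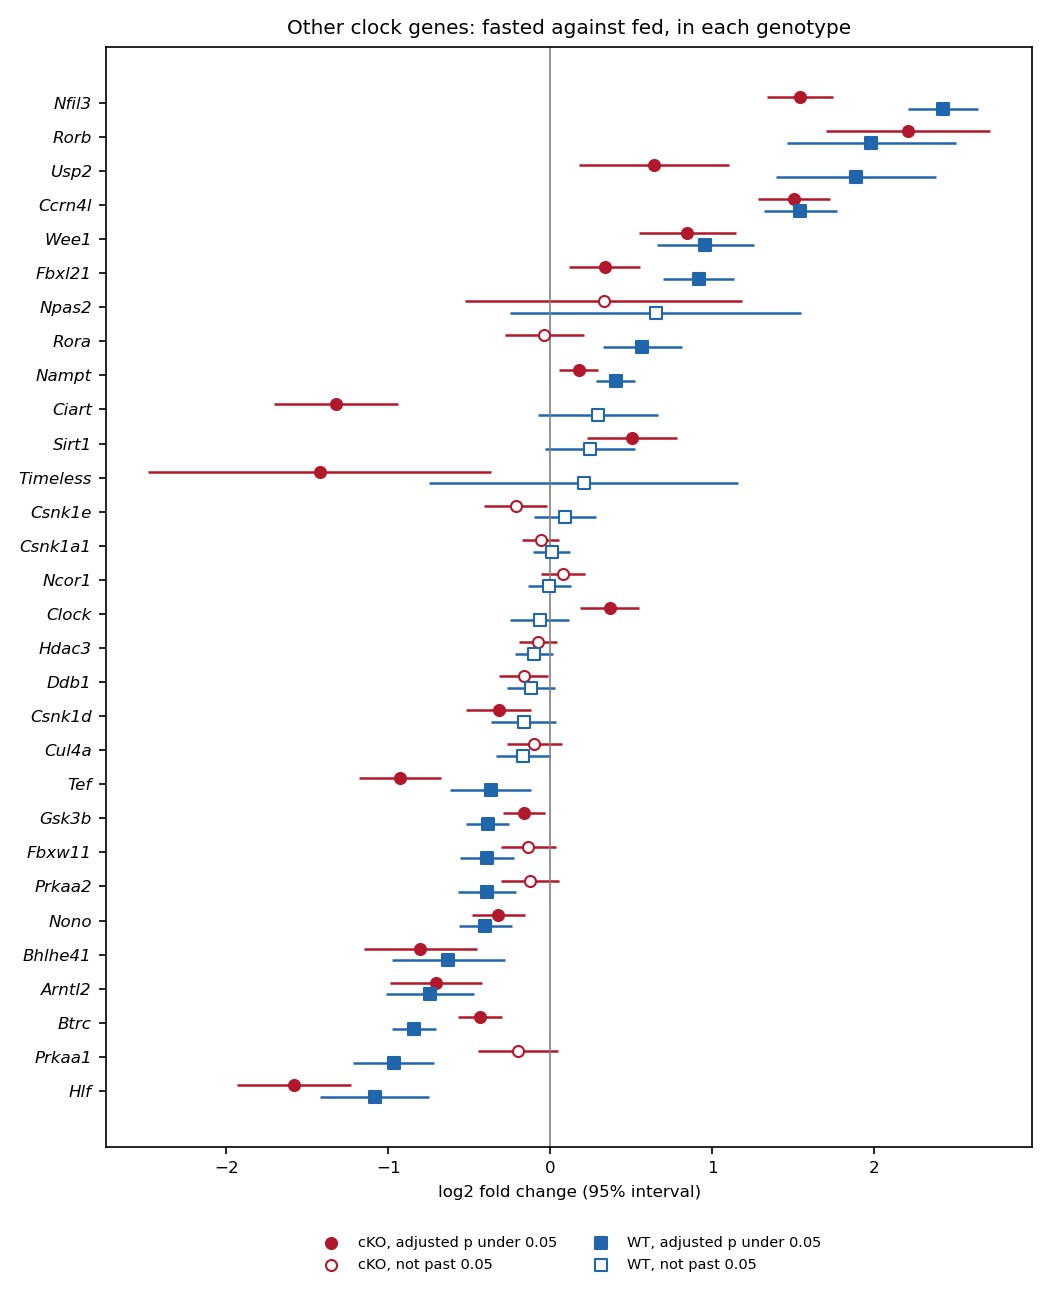
Log2 fold change of 30 of the 31 further clock genes tested, fasted against fed, with 95% intervals, for cKO (circles) and wild type (squares), ordered by the wild-type value, with filled symbols at an adjusted p under 0.05. Nfil3 leads in wild type at 2.42 and Hlf is lowest at -1.08, and Ciart lies at -1.32 in cKO and 0.30 in wild type.

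Genes known to act upstream of Per1 or to be induced with it, through activity, CREB and the glucocorticoid receptor, were counted beside it. Of 17 tested, 5 rose and 5 fell with fasting in cKO, and 13 rose and 3 fell in wild type, where 26.0% and 27.0% of all tested genes did so in cKO and 29.6% and 31.3% in wild type. In fed mice 13 were higher and 1 lower in cKO, against 5.87% and 3.81% of all tested genes. In fasted mice 5 were higher and 3 lower in cKO, against 11.5% and 8.84%. The response to fasting was lower in cKO for 9 and higher for 1, against 8.44% and 8.87%. The following were named after their values were seen. Fos averaged 60.9 ± 11.5 CPM in fasted cKO and 120.4 ± 7.39 in fed cKO, and 151 ± 14.4 CPM in fasted and 2.91 ± 0.712 in fed wild type. Egr1 averaged 45.02 ± 5.19 CPM in fasted cKO and 35.9 ± 7.22 in fed cKO, and 48.01 ± 7.70 CPM in fasted and 0.805 ± 0.443 in fed wild type. Both activity genes, like Per1, were lowest in fed wild type, and their interactions were -6.68 ± 0.180 and -5.59 ± 0.263 SE (adjusted p = 3.72e-21 and 3.21e-15). With fasting in cKO Fos fell (-0.98, adjusted p = 9.39e-09), where Per1 did not pass the test. Other activity genes of the list were mixed. Fosb and Nr4a3 rose with fasting in cKO, 9.55-fold and 1.96-fold (adjusted p = 3.95e-09 and 0.000901). The interactions of Nr4a3 (-0.11, adjusted p = 0.866) and Sik1 (-0.66, adjusted p = 0.221) did not pass, while Fosb, Junb, Nr4a1, Nr4a2 and Dusp1 had a lower response in cKO. Whether these genes and Per1 respond to the same signal was not tested.

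Markers of other cells moved with some of these groups. The 6 astrocyte markers, 4 of them tested and most of their sum from Agt, summed to 40.6 to 94.1 CPM in fasted cKO, 27.4 to 56.8 in fed cKO, 31.8 to 58.4 in fasted wild type and 6.42 to 13.2 CPM in fed wild type, the group in which Per1 and Per2 were lowest. Of these, Agt was at 3.5 to 7.71 CPM in fed wild type and 25.7 to 54.7 CPM in fed cKO. Gfap, Aldh1l1, Slc1a3 and Gja1 overlapped between the fed groups. Gfap reached 1.29 and Gja1 3.12 CPM in fed wild type, against 0.781 and 0.852 in fed cKO. Aqp4 was at 0 in fed cKO and reached 1.25 CPM in fed wild type. The 7 oligodendrocyte markers, 4 of them tested, summed to 49.6 to 65.4 CPM in fasted cKO, 82.5 to 101 in fed cKO, 49.9 to 73.2 in fasted wild type and 90.5 to 104 CPM in fed wild type, higher in both fed groups as were Per3, Dbp and Bhlhe40, and Olig2 was at 0 in fed wild type. The 3 kisspeptin neuron markers, 1 of them tested and most of their sum from Pdyn, summed to 18.3 to 50.6 CPM in fasted cKO, 11.9 to 18.0 in fed cKO, 24.6 to 49.7 in fasted wild type and 6.71 to 10.6 CPM in fed wild type. Of these, Tac2 was at 0 in fed cKO and both wild-type groups, and Kiss1 was at 0 in fed cKO. The highest sum was that of fasted cKO replicate 4, in which Tac2 was at 17.9 and Kiss1 at 2.95 CPM. Of 7 markers of other hypothalamic neurons 4 were tested, and their sum, mostly Sst, was 497 to 1050 CPM in fasted cKO, 136 to 363 in fed cKO, 362 to 844 in fasted wild type and 292 to 504 CPM in fed wild type, with Pmch at 0 in both wild-type groups. The 3 Pomc neuron markers, most of their sum from Cartpt, summed to 456 to 1120 CPM in fasted cKO, against 344 to 446 in fed cKO, 408 to 496 in fasted wild type and 374 to 472 CPM in fed wild type. Pomc was at 194 to 441 CPM in fasted cKO replicates 3 to 5 and at 35.5 and 41.1 CPM in replicates 1 and 2. Tbx3 went the other way, at 16.5 to 26.9 CPM in fasted cKO, against 25.8 to 31.9 in fed cKO and 37.5 to 49.8 CPM in fed wild type. The part of these markers of other cells in the clock gene results was not tested. Microglial markers, of which 0 of 6 were tested, summed to at most 1.84 CPM in any library.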

How the data were processed

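Libraries of 1000 sorted neurons were made with SMART-seq v4 (15 amplification cycles) and Nextera XT, per the labels' protocols. The submitters' processing notes name Trimmomatic 0.36, HISAT2 2.1.0, Subread 1.6.2 (featureCounts), DESeq2 1.20.0 and GRCm38 (mm10). The sources used here do not give the annotation or the strand setting. The raw gene counts deposited by the authors were used, not their normalized table. Depth was 8494499 to 13573524 counts, and the floor of 3 counts equals 0.207 to 0.388 CPM. It covers counting error only, since amplified reads are not independent molecules. Names matched GENCODE M21 for 22063 of 23129 genes (95.4%).

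Counts were fitted in edgeR 4.0.16 (R 4.3.3) with TMM scaling, filterByExpr at a count of 10 and a total of 15, 4 group means over 20 libraries and the quasi-likelihood test, with Benjamini-Hochberg adjustment over 13237 genes in each of 5 comparisons and a threshold of 0.05. Fold changes are given ± SE, and CPM as mean ± SD over 5. The steps were tested on simulated counts. Replicates were checked for duplicates, and the chi-square per degree of freedom was 3.36 to 24.3 over 40 pairs. Alternatives were DESeq2 1.42.0, 2 other scalings, 2 other filters, a robust fit, fits of only the groups compared, a replicate term, offsets for gene length and GC content, each library left out, and subsets of the fasted replicates. Other clock genes were named by up to 6 smallest p-values per comparison, and like genes by the 2 smallest distances. Of the further clock genes, 1 is counted but not reported here. The members and lists were chosen with earlier results of these data known. Promoter windows are from RefSeq.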

Additional observations from a re-analysis of the deposited data

Results flagged for a closer look

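The response to fasting differed between genotypes, by a test of the difference itself, for 5 of the 10 clock genes. In log2 units the cKO response minus the wild-type response was -1.51 for Per1, -2.15 for Per2, -1.15 for Cry2, -0.85 for Nr1d1 and -0.66 for Dbp (edgeR adjusted p = 8.94e-06, 1.23e-05, 2.04e-05, 0.000988 and 0.0358). For Per1, Per2 and Cry2 no change passed the test in cKO and a rise did in wild type, and Nr1d1 and Dbp fell further in cKO. By Dixon's criterion, 0 of 40 sets of 5 values, each 1 clock gene in 1 group, held a library far from the others, where chance flags about 1 in 20.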

How the results depend on the processing

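Depth limits the scarce members, since Bhlhe40 in fasted cKO rests on 16 to 47 and Per2 on 29 to 128 reads per library. Per3 rests on 28 to 52 reads in fasted cKO and 26 to 77 in fasted wild type. Dbp rests on 38 to 47 and 34 to 76 reads in the same groups. Over the 10 genes and 5 comparisons, 1440 of the alternative values kept direction and call, 59 lost and 28 gained a call, and 13 changed sign; the cause was not tested. The number of members called stayed within 1.5 times in all 5 comparisons, from 5 each for cKO in fed and in fasted mice, except with only the groups compared (3 in fasted mice), with fasted replicates 1 and 2 alone (2 in fasted mice) and with single libraries left out (3 to 5 in fed mice, lowest without fed cKO replicate 3, and 3 to 6 in fasted mice, lowest without fasted wild-type replicate 4 or fasted cKO replicate 1). Signs turned for Cry2 with fasting in cKO (0.062 with length and GC offsets), Arntl with fasting in cKO (-0.049 to 0.20 without single libraries, -0.58 with fasted replicates 1 and 2), Per3 with cKO in fasted mice (-0.35 to 0.096 without single libraries, 0.16 with replicates 3 to 5) and Nr1d2 there (-0.19 to 0.016 without single libraries, 0.014 with replicates 1 and 2). With replicates 1 and 2 they also turned for Cry1 with cKO in fasted mice (0.44) and for the interactions of Cry1 (0.80) and Arntl (-0.34). With fasted replicates 1 and 2 alone, Dbp and Bhlhe40 lost their falls with cKO in fasted mice (adjusted p = 0.489 and 0.534) and Dbp its interaction (0.298). Over all genes, calls in fed mice were 777 up and 504 down against 1518 and 1434 with only the groups compared, and in fasted mice 1517 and 1170 against 731 and 621. With fasted replicates 3 to 5 alone they were 1370 and 1150 in fed mice and 1810 and 1793 for the interaction (1174 and 1117 with all), and with replicates 1 and 2 alone 1401 and 1183 in fed and 1014 and 668 in fasted mice. Same-numbered samples of different groups had correlations of deviations of -0.0536 to 0.131 over 30 pairs, 2 of them over 0.1, so the numbers were not taken as pairs, although all 5 between fasted cKO and fasted wild type were above 0 (0.0221 to 0.131). With replicate number as a block 5, 5, 6, 9 and 6 members were called for cKO in fed mice, cKO in fasted mice, fasting in cKO, fasting in wild type and the interaction; Per1 gained a fall with cKO in fasted mice (-0.35, adjusted p = 0.0476), Nr1d2 an interaction (0.0401), and Dbp lost its fall with cKO in fasted mice (0.0513).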

Other observations

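Among the genes counted beside Per1, those of the glucocorticoid response did not move as 1 group. These were named after their values were seen. Fkbp5, a known glucocorticoid receptor target, averaged 74.6 ± 18.3 CPM in fasted cKO and 20.9 ± 1.39 in fed cKO, and 60.95 ± 7.15 CPM in fasted and 14.8 ± 0.803 in fed wild type (mean ± SD, n = 5), and it rose with fasting in both genotypes (interaction -0.20, edgeR adjusted p = 0.443). Sgk1, a kinase gene induced by glucocorticoids and by other signals, averaged 287 ± 24.8 CPM in fasted cKO and 166 ± 7.74 in fed cKO, and 318 ± 33.6 CPM in fasted and 44.3 ± 2.98 in fed wild type, with a smaller rise in cKO (interaction -2.06, adjusted p = 6.74e-15). Tsc22d3, another known target, fell with fasting in cKO (-0.51, adjusted p = 4.55e-07) and in wild type (-0.34, adjusted p = 9.6e-05).

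The transcript of CREB itself ran against Per1. Creb1 averaged 28.3 ± 3.23 CPM in fasted cKO and 24.3 ± 2.72 in fed cKO, and 16.4 ± 4.76 CPM in fasted and 36.5 ± 2.51 in fed wild type, so its change with fasting did not pass the test in cKO (0.22, 95% interval -0.053 to 0.50, adjusted p = 0.166), and it fell in wild type (-1.16, adjusted p = 2.99e-08). Its interaction of 1.38 ± 0.191 SE (adjusted p = 1.17e-05) was the only one of the 17 with a higher response in cKO. Crem, a CREB family gene whose repressor isoforms are induced by cAMP, rose with fasting 1.93-fold in cKO and 2.13-fold in wild type.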
